A study of Mus musculus with 3 samples.

Results

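The 10 genes described here are markers of astrocytes and of radial glia, the glial cells of the cortex and their progenitors: Slc1a2, Slc1a3, Aldh1l1, Aldoc, Apoe, Clu, Fabp7, Glul, Aqp4 and Gfap. They were chosen by name, with earlier results of these data known. All 10 were found among the 20823 mouse genes with counts for a CDS and both UTRs. The minimum of 100 CDS reads, summed over the 3 libraries, was met by 11459 genes and by all 10 of these. Their ribosome footprints, the mRNA fragments that ribosomes shield from nuclease, were sequenced from mouse primary neuronal cultures of the cortex, grown in Neurobasal with B27 and Glutamax. Neurons of the WT library were given no drug, Chx neurons cycloheximide for 2 min, and Harr neurons harringtonine for 2 min, with a cycloheximide pulse after it. Each library was pooled from 3 dishes, and cycloheximide at 100 μg per ml was also in the buffers used to wash and lyse the cells of all 3. The titles, treatment labels and file headers name these 3 treatments, whereas the free-text descriptions name input and pulldown fractions of cytosol and psd regions. The libraries are called here by their treatment labels, and this conflict in the labels bears on every value below. Genotype, strain, age and culture day are not given in the labels. With 1 library per treatment, no difference below has a replicate check, and the 95% intervals cover counting error only.

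Astrocytes clear glutamate from the synapse, turn it into glutamine, and supply lipids and metabolites to neurons. Radial glia share much of this gene programme. Slc1a2 and Slc1a3 encode the glial glutamate transporters GLT-1 and GLAST, and Glul encodes glutamine synthetase. Apoe and Clu encode secreted lipoprotein components, and Fabp7 a fatty acid binding protein of radial glia and immature astrocytes. Aldoc is a glycolytic aldolase, Aldh1l1 a cytosolic enzyme of folate metabolism, Aqp4 the water channel of astrocyte endfeet, and Gfap the intermediate filament of mature or reactive astrocytes. Cycloheximide stops elongating ribosomes where they are. Harringtonine traps ribosomes at initiation and lets the elongating ones finish, so that footprints leave a CDS from its 5′ end first and stay at the start codon.

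The start codon is therefore the place where harringtonine leaves footprints, and reads were counted in these tables at their 5′ end with an offset of 0. A ribosome on the start codon is then counted a few bases upstream, in the 5′ UTR. The stretches around the annotated start codons of 6 of the genes are shown because this is where the drug is known to hold ribosomes. The tables give reads per exon segment and do not place them on single bases. Each runs 5′ to 3′ on the mRNA strand from 12 bases before the ATG, which is in capitals, and was read from the GENCODE M21 transcripts (mm10).
Slc1a2: gttccccacgccATGgcatcaacagag
Slc1a3: gaaagataaaatATGaccaaaagcaac
Aldoc: acaactgtcatcATGccccactcatac
Apoe: acaattgcgaagATGaaggctctgtgg
Clu: ggaggccacgccATGaagattctcctg
Fabp7: aggcggttaaggATGgtagatgctttc
All 10 genes had a purine 3 bases before the ATG, as did 86.6% of 11385 genes with an annotated ATG start. In 4 of the 10 (Slc1a2, Fabp7, Glul and Gfap) a G also followed the ATG directly, against 45.6% of those genes with both features. An upstream ATG was present in the 5′ UTR of 4 of the 10 (Slc1a2, Slc1a3, Glul and Aqp4), against 54.0% of genes.

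In mm10, the coding regions lie at chr2:102659285-102781534 on the plus strand (Slc1a2, 11 coding segments), chr15:8636132-8708742 on the minus strand (Slc1a3, 9 segments) and chr1:153902947-153908182 on the plus strand (Glul, 6 segments). Apoe lies at chr7:19696380-19698230 on the minus strand (3 segments), Clu at chr14:65971759-65981317 on the plus strand (8 segments) and Fabp7 at chr10:57785009-57786585 on the plus strand (3 segments). Aldoc lies at chr11:78324402-78326354 on the plus strand (8 segments), Aldh1l1 at chr6:90557225-90598942 on the plus strand (22 segments) and Gfap at chr11:102888677-102897117 on the minus strand (9 segments). Aqp4 is on chromosome 18 with 5 coding segments. A segment is the part of the CDS within 1 exon, and its read count is the smallest unit the tables give.

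Together the 10 coding regions held 31828 reads in Chx against 4361 in Harr and 28497 in WT, out of library totals of 35722483, 9754412 and 30219197 reads. Per 1000000 reads of the library this was 891, 447 and 943. Chx and WT were thus close, and the level in Harr was lower than in either. The same sums were 4595, 4054 and 4754 for 8 neuronal markers (Map2, Tubb3, Rbfox3, Syn1, Snap25, Camk2a, Slc17a7 and Gad1), of which all were read in every library. The neuronal sum rests on Map2, which has a long CDS: the other 7 gave 2521, 1150 and 2523, and were thus lower in Harr as well. Without Fabp7, the most read astroglial gene, the other 9 gave 657, 256 and 711. For 6 microglial markers they were 5.32, 1.85 and 4.20, with P2ry12 at 0 reads in Chx and Harr and Cx3cr1 at 0 in Harr. For 6 endothelial and mural markers they were 3.64, 2.15 and 3.90, with Cldn5 at 0 in Harr and WT. For 14 radial glia and progenitor genes they were 1130, 962 and 1175, or 495, 308 and 545 without Ptprz1. For 15 further astrocyte genes they were 530, 364 and 590, and for 9 oligodendrocyte lineage genes 187, 83.1 and 200. The cultures labelled as neuronal thus held footprints of astroglial, progenitor and oligodendrocyte lineage genes as well as of the neuronal ones. Footprints from few cells and from little RNA per cell cannot be told apart in such a bulk library.

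Fabp7 had the highest CDS read density of the 10 and Gfap the lowest, in all 3 libraries. Density is given in RPKM, reads per kilobase of CDS and 1000000 reads of the library. Fabp7 stood at 413 in Chx against 337 in Harr and 410 in WT, above at least 98.3% of genes in each library. Its level varied less between the 3 libraries than that of the next gene. Apoe was at 156 in Chx against 29.6 in Harr and 210 in WT. It was highest in WT and lowest in Harr.

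The 3 genes of glutamate handling and Clu formed a group of like density without harringtonine. Slc1a2 was at 73.4 in Chx against 50.6 in Harr and 64.1 in WT. Slc1a3 was at 66.9, 22.4 and 77.2, and Glul at 69.6, 15.4 and 71.0. Clu was at 65.8, 31.1 and 64.3. In Chx, neither Glul and Slc1a3 nor Slc1a3 and Clu differed beyond counting error. In WT the same was true of Clu and Slc1a2. In Harr the 4 genes spread out, from Slc1a2 at the top through Clu and Slc1a3 to Glul, and their counting intervals did not overlap.

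Aldh1l1, Aldoc, Aqp4 and Gfap had the lowest densities. Aldh1l1 was at 27.6 in Chx against 14.5 in Harr and 27.6 in WT. Aldoc was at 21.3, 2.91 and 22.6, and Aqp4 at 9.24, 2.85 and 10.1. Aldoc and Aqp4 did not differ beyond counting error in Harr, and neither did Glul and Aldh1l1. Gfap was at 1.62 in Chx (75 reads), 0.238 in Harr (3 reads, interval 0.0491 to 0.695) and 1.74 in WT (68 reads). It was at the 9.17 percentile of genes with the read minimum in WT, so the filament of mature and reactive astrocytes had the fewest footprints of the list.

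**Figure D1:**
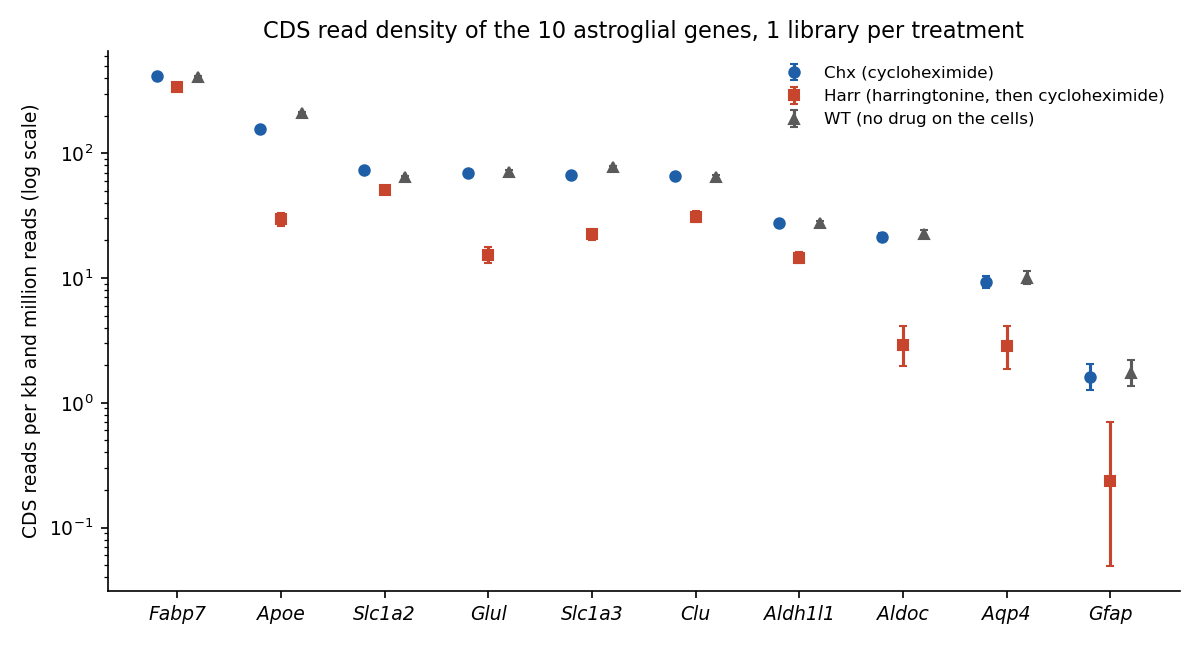
CDS read density (reads per kb of CDS and 1000000 reads of the library, log scale) of the 10 genes, in order of their level in Chx. Each symbol is 1 library and each bar a 95% counting interval. Harr lies below Chx and WT for every gene, by the least for Fabp7 and Slc1a2 and by the most for Aldoc, Gfap, Apoe and Glul. On the other scale used below, per 1000000 CDS reads, the Harr to Chx log2 ratio was 0.26 for Fabp7 and 0.01 for Slc1a2.

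To compare libraries whose depth differs, CDS reads were taken per 1000000 CDS reads and given as a log2 ratio, with 0.5 added to each count. Run-off clears the part of a CDS nearest to its start, so a short CDS loses a larger share of its footprints than a long one. Each ratio was therefore set against the median ratio of genes whose CDS was within 10% of the same length, and the difference from that median is called the deviation. It does not depend on how the libraries are scaled.

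Between Harr and Chx the median CDS ratio of the 10 genes was -1.08, against -0.05 over the 11459 genes. It was -1 or less in 6 of the 10 and in 14.1% of all genes. Their median deviation from genes of equal CDS length was -0.88, against 0.00 over all genes. The deviation was below 0 in 9 of the 10 and in 5708 of the 11459 genes. In 8 of the 10 the whole counting interval lay below 0, a count that was not taken over all genes. The deviation was -1 or less, a deficit of at least 2-fold, in 5 of the 10 genes and in 5.37% of all genes tested. Of these 5, Slc1a3 (-1.01) was at -0.98 against genes within 25% of its length and Gfap rests on 3 reads in Harr. With a minimum of 1000 CDS reads, which leaves out Gfap and Aqp4, the count was 3 of 8. The share of all genes under that minimum was not computed.

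The lowest deviation was that of Aldoc, but its interval (-2.38 to -1.35) overlapped those of Gfap, Apoe and Glul, so their order was not resolved. Aldoc had 831 CDS reads in Chx against 31 in Harr and 746 in WT over a CDS of 1092 nt. Its Harr to Chx log2 ratio was -2.30 (-2.82 to -1.79), and its deviation of -1.87 put it below all but 0.940% of 1170 genes of equal length. Chx and WT were alike for this aldolase, and only Harr stood apart.

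Gfap had 75, 3 and 68 CDS reads. With so few reads its Harr to Chx ratio, as a linear ratio of reads per 1000000 CDS reads, was 0.214 with an exact counting interval of 0.0432 to 0.650. Its deviation was -1.76 (-3.31 to -0.21), so the direction was outside counting error and the size was not well determined.

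Apoe had 5208 CDS reads in Chx against 270 in Harr and 5940 in WT, on a CDS of 936 nt. The ratio was -1.85 (-2.02 to -1.67) and the deviation -1.32, at the 3.64 percentile of genes of equal length. Glul had 2790, 168 and 2408 reads on 1122 nt. Its ratio was -1.63 (-1.85 to -1.41) and its deviation -1.21. The Glul value carries an added uncertainty: 61.1% of the 25-nt words of its CDS also occur in other genes, 590 of them in Glns-ps1, so reads may have been placed on either copy, whereas no other member shared more than 0.236%.

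Slc1a3 was just past the 2-fold line. It had 3902 reads in Chx against 356 in Harr and 3809 in WT on a CDS of 1632 nt. The ratio was -1.03 (-1.19 to -0.88) and the deviation -1.01 (-1.17 to -0.85), at the 2.93 percentile. The other astroglial glutamate transporter, Slc1a2, had 4510, 849 and 3329 reads on a CDS of 1719 nt, almost the same length. Its ratio was 0.01 (-0.09 to 0.12) and its deviation -0.01 (-0.12 to 0.10), in the middle of genes of equal length. The paired transporters thus differed by more than counting error in their response to harringtonine, although Slc1a2 was the denser of them in Chx and Slc1a3 in WT.

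Aldh1l1 lay just outside the 2-fold line. It had 2669 reads in Chx against 383 in Harr and 2263 in WT, over the longest CDS of the list (2709 nt). Its ratio of -0.38 (-0.53 to -0.22) was a small decrease, but genes of this length had a median of 0.38, so the deviation was -0.76 (-0.91 to -0.61) at the 3.14 percentile. Length thus hid part of the difference for this enzyme.

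Clu and Aqp4 were nearer to other genes. Clu had 3164, 408 and 2616 reads and a deviation of -0.31 (-0.46 to -0.16), at the 29.1 percentile. Aqp4 had 321, 27 and 296 reads and a deviation of -0.61 (-1.17 to -0.04), at the 17.5 percentile.

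Fabp7 was the one gene above its length class. It had 8358 CDS reads in Chx against 1866 in Harr and 7022 in WT, a ratio of 0.26 (0.19 to 0.33) and a deviation of 1.02 (0.95 to 1.09). The ratio itself was below 0, at -0.26, when scaled to the reads in all regions, but the deviation was not affected by the scale. As shown further on, this value came from a single segment, the one that holds the start codon.

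**Figure D2:**
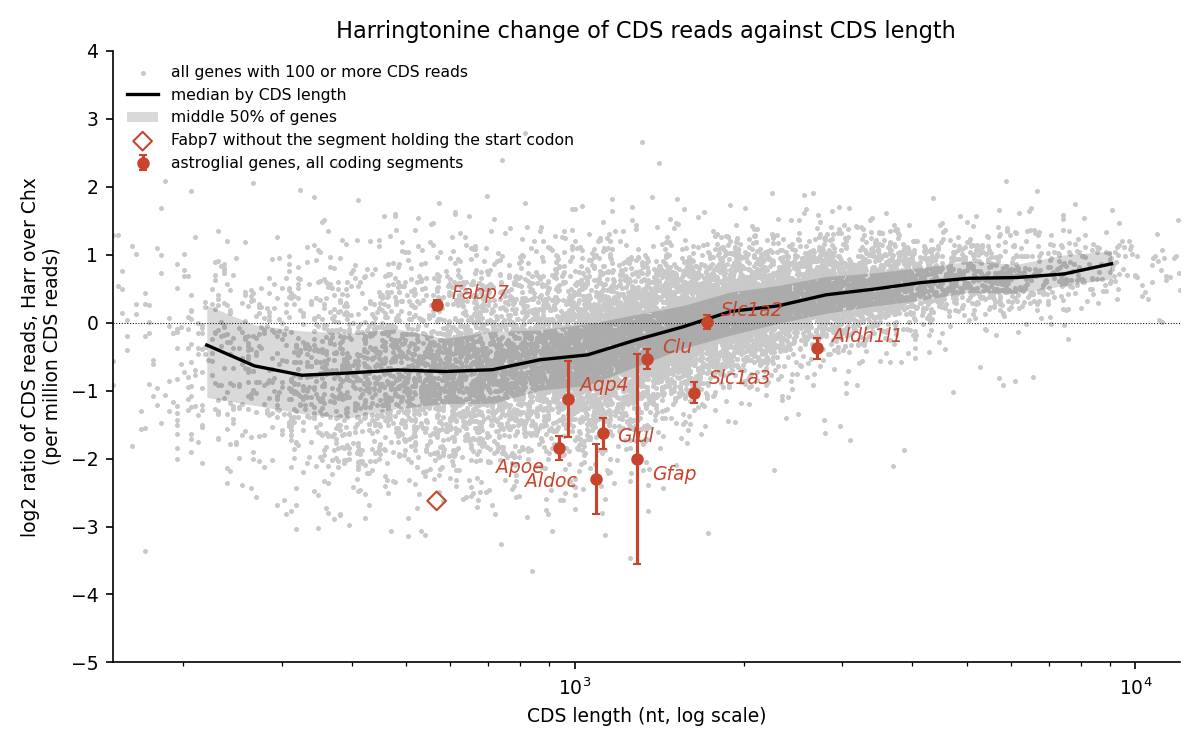
Log2 ratio of CDS reads, Harr over Chx (per 1000000 CDS reads), against CDS length (nt, log scale). Grey points are the 11459 genes with 100 or more CDS reads, the line and band their median and middle 50% by length, and red points the 10 genes with 95% counting intervals; 9 of the 10 red points lie below the median for their length and Fabp7 above it, until the segment with its start codon is left out (open diamond, -2.62).

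Harr against WT uses the same Harr library, so its values are set beside the others and are not a second measurement of it. The median ratio was -1.28 for the 10 genes and 0.00 for all genes, and the ratio was -1 or less in 6 of the 10 and in 14.7% of all genes. The median deviation was -1.10. It was -1 or less in 5 of the 10 genes and in 6.07% of all genes. These were the same 5 genes, with deviations of -2.03 for Aldoc, -1.92 for Gfap, -1.78 for Apoe, -1.33 for Glul and -1.30 for Slc1a3. Aldh1l1 was at -0.89, Aqp4 at -0.80, Clu at -0.34, Slc1a2 at 0.10 and Fabp7 at 1.03.

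Between Chx and WT, which differ in the drug given to the cells and not in the buffers, the 10 genes moved little. The median ratio was -0.09 and the median deviation -0.15. None of the 10 deviated by 1 or more in either direction, a size that 0.305% of all genes reached. Apoe was the lowest, with 5208 reads in Chx against 5940 in WT, a ratio of -0.47 (-0.52 to -0.41) and a place at the 3.64 percentile of genes of equal length. Slc1a3 had a ratio of -0.24 (-0.31 to -0.18), and Slc1a2 one of 0.16 (0.10 to 0.22). The Fabp7 ratio was -0.03 (-0.07 to 0.02).

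The position of the lost reads was read from the coding segments. Over all genes, the Harr to Chx ratio was 0.24 in the first 100 nt of the CDS, had its minimum of -1.48 between 300 and 400 nt, reached 0.03 between 900 and 1000 nt and was above 1 beyond 1500 nt. Footprints were thus lost near the start and kept farther on, and 4 of the 10 genes had a CDS long enough and reads enough to show both.

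Slc1a2 had the shape of the curve of all genes, with a wider span. Its second coding segment, at 18 to 157 nt, had 575 reads in Chx against 55 in Harr and 489 in WT, a ratio of -0.95. All genes were at 0.24 in the first 100 nt, start codon segments included, and at -0.93 between 100 and 200 nt. The fourth segment of Slc1a2, at 311 to 561 nt, had 700, 35 and 444 reads and a Harr to Chx ratio of -1.88. The eighth, at 1089 to 1283 nt, had 602, 180 and 412 reads and a ratio of 0.68. By the last segment, 53 reads in Chx stood against 46 in Harr and 61 in WT, a ratio of 2.22 where all genes were at 1.18. Position was also taken in 300-nt classes from the start of the CDS, leaving out the segment with the start codon. Slc1a2 was then between the 24.5 and the 77.7 percentile of genes of like CDS length (within 25%). Below 300 nt its ratio was -1.28 against a median of -1.02, at the 41.0 percentile.

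Slc1a3 had the same shape at a lower level. Its second segment (182 to 319 nt) had 594 reads in Chx against 16 in Harr and 738 in WT, a ratio of -2.75. The next had 564, 14 and 499 reads, a ratio of -2.86. Its last segment (1425 to 1632 nt) had 344, 77 and 338 reads and a ratio of 0.27, where all genes were at 1.03. From the 5′ to the 3′ part, its 6 classes were at the 4.85, 7.70, 12.7, 23.5, 7.38 and 7.18 percentiles. The deficit of Slc1a3 was thus present along the whole CDS.

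Aldh1l1 lost its reads over a long stretch at its 5′ end. Segments 2 and 3, at 128 to 528 nt, had 482 and 226 reads in Chx, 404 and 183 in WT, and 5 and 4 in Harr. Segment 4 had 72 reads in Chx, 57 in WT and 0 in Harr, which allows up to 3 reads. The ratio was still -1.88 at segment 8 (985 to 1076 nt), where all genes were at 0.29. It passed above 0 for good only from segment 16 on (1889 to 1982 nt). Beyond 1800 nt, 709 reads in Chx stood against 267 in Harr and 528 in WT, a ratio of 1.01 at the 42.2 percentile of genes of like length. Up to 1800 nt all 6 classes lay between the 0.567 and the 5.67 percentile. The stretch cleared by harringtonine thus reached farther in Aldh1l1 than in most genes of this length, while its 3′ end was in the middle of theirs.

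Clu lost its 5′ segments and kept its 3′ ones. Segment 2 (95 to 243 nt) had 148 reads in Chx against 5 in Harr and 129 in WT. Segment 7 (1162 to 1337 nt) had 372, 142 and 404 reads, a ratio of 1.03. Its place among genes of like length went from the 12.1 percentile below 300 nt to the 60.7 beyond 1200 nt. Against WT the latter class was at the 34.1 percentile.

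In the shorter coding regions of Aldoc, Glul and Apoe, reads were low up to the last segment. The last Aldoc segment (1000 to 1092 nt) had 87 reads in Chx, 74 in WT and 1 in Harr, a ratio of -3.45 where all genes were at 0.29. Its 4 classes lay between the 0.312 and the 6.13 percentile. The last Glul segment (804 to 1122 nt) had 608, 40 and 479 reads in Chx, Harr and WT and a ratio of -1.49, where genes of like length had a median of 0.31 in that class. Its classes lay between the 2.08 and the 5.43 percentile. The second segment of Apoe (44 to 212 nt) had 1281 reads in Chx against 27 in Harr and 1185 in WT, a ratio of -3.12. In its long last segment (213 to 936 nt), 3742, 202 and 4430 reads gave a ratio of -1.79.

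Fabp7 separated most sharply between its first segment and the others. The first 73 nt had 3735 reads in Chx against 1727 in Harr and 2751 in WT, a Harr to Chx ratio of 1.31. The next 173 nt had 3749, 123 and 3366 reads and a ratio of -2.50. The last segment had 874, 16 and 905 reads and a ratio of -3.31. The first segment held most of the Harr reads of the CDS, and without it the gene moved from the highest deviation of the list to -1.44, at the 3.27 percentile of 490 genes. The transcript used for Fabp7 is the longest one. Its last segment extends 219 nt beyond the matching segment of the other coding transcript and had 0 reads there in all 3 libraries, which allows up to 3 in each. The other transcript has a CDS of 399 nt and a last segment of 51 nt with 366, 12 and 582 reads, so the footprints of Fabp7 lay on that transcript. On the transcript with the most CDS reads, the deviation was 0.94. The value of -1.44 is against genes near the 567 nt of the longest transcript, and was not computed for the shorter one.

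Leaving out the segment with the start codon in all genes left 9 of the 10 with enough reads, all but Gfap. All 9 were then below genes of equal CDS length, and the median deviation was -0.90, against 0.01 over all genes. In 4 of the 9, and in 5.89% of 10185 genes, the deviation was -1 or less: Aldoc (-2.59), Glul (-1.70), Fabp7 (-1.44) and Apoe (-1.21). Slc1a3 moved to -0.90. Against WT, 5 of the 9 were at -1 or less, with 6.05% of all genes, and Slc1a3 was among them at -1.16.

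**Figure D3:**
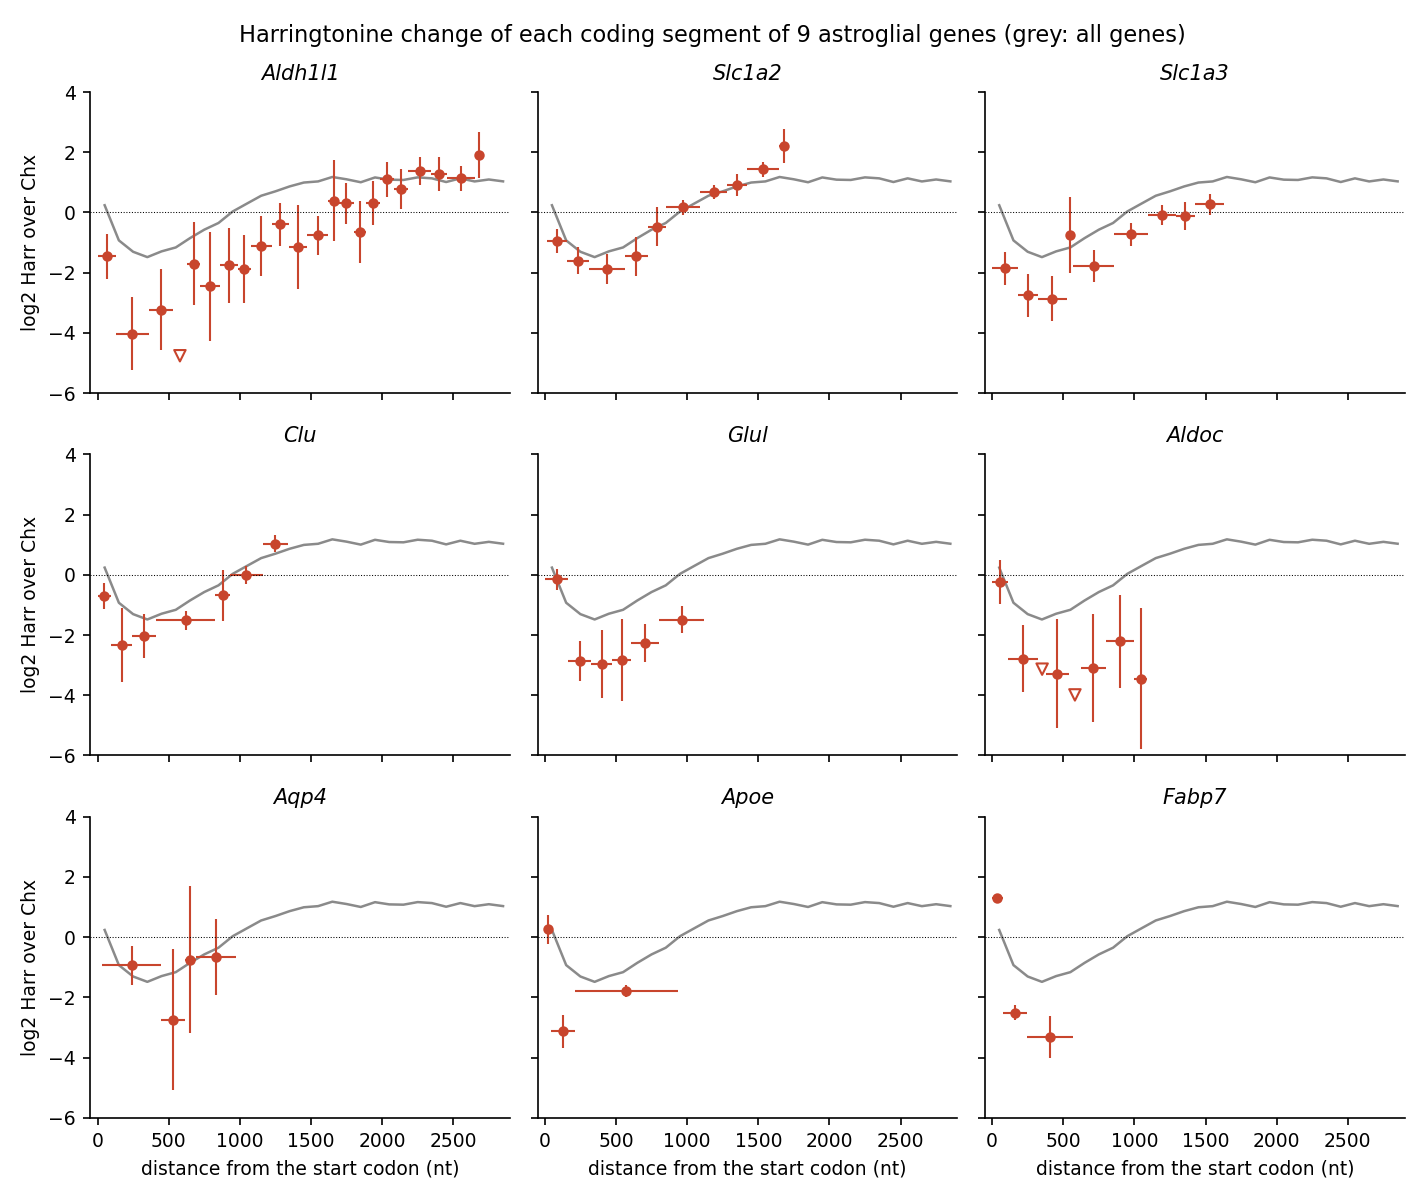
Log2 ratio Harr over Chx of each coding segment (per 1000000 CDS reads) against the distance of its midpoint from the start codon (nt), for the 9 genes other than Gfap. Horizontal bars span the segment and vertical bars are 95% counting intervals. Open triangles are segments with 0 reads in Harr (a segment of Clu with 0 in Chx is left out). The grey line is the sum over all genes, start codon segments included. Slc1a2 starts below the grey line and ends above it, and Aldh1l1 lies below it up to 1982 nt. The segments of Aldoc and Glul lie below it, and Slc1a3 does so except at 525 to 567 nt, where it had 5 reads in Harr.

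The shortest coding segments hold few reads here whatever the treatment. Internal coding segments of up to 20 nt had 1.26% of the read density of their own gene in Chx against 0.104% in Harr and 0.824% in WT. Segments of 31 to 50 nt had 62.3%, 78.6% and 62.4%, and those of 101 to 400 nt had 102%, 91.0% and 102%. The first coding segments of Slc1a2 (17 nt) and Aqp4 (32 nt) had 0 reads in all 3 libraries. The first segment of Apoe (43 nt) did have reads, 185 in Chx against 41 in Harr and 325 in WT. What the empty first segments of Slc1a2 and Aqp4 add to the values above was not tested.

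The 5′ UTR reads did not go down with the CDS reads. Of all reads on the 10 genes, the 5′ UTR held 10.4% in Chx against 48.0% in Harr and 8.19% in WT, against 8.71%, 33.5% and 6.14% over all genes. For each gene the 5′ UTR to CDS ratio was compared between libraries as a log2 odds ratio, with 0.5 added to each count. Over the 9 genes that had 10 or more reads in both regions, its median change from Chx to Harr was 3.30, against 2.46 over 10723 genes. All 9 had a ratio at least 2-fold higher in Harr with an interval above 0, as did 89.4% of all genes. Against WT, all 8 genes with enough reads did so, as did 94.3% of all genes. The call is thus common to nearly every gene, and only its size tells the members apart.

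Apoe and Aldoc had the largest changes. Apoe had 416 5′ UTR reads in Chx against 728 in Harr and 518 in WT, or 7.99, 270 and 8.72 per 100 CDS reads. The log2 odds ratio was 5.07 (4.83 to 5.32), higher than in 98.4% of genes of equal CDS length. Against WT it was 4.95 (4.71 to 5.19), at the 87.8 percentile. Most of these reads lay in the last 23 nt before the ATG, with 303, 589 and 465 reads, so that this short piece held more reads in Harr than the whole CDS (270).

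Aldoc had 102, 108 and 62 5′ UTR reads, or 12.3, 348 and 8.31 per 100 CDS reads. Its odds ratio was 4.80 (4.16 to 5.45) from Chx and 5.36 (4.68 to 6.05) from WT. The Aldoc and Apoe intervals overlapped in both comparisons, so their order was not resolved. Clu had 174, 356 and 146 reads and an odds ratio of 3.98 (3.68 to 4.28), at the 94.3 percentile of genes of equal CDS length. Against WT it was 3.96, at the 71.3 percentile.

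In 6 of the genes the 5′ UTR lies on 2 exon segments, and in all 6 the reads per nt were higher in the segment that ends at the ATG than in the one before it, in Chx and WT as well as in Harr. Apoe had 13.2, 25.6 and 20.2 reads per nt in Chx, Harr and WT in its last 23 nt and 0.635, 0.781 and 0.298 in the 178 nt before. In Clu the last 27 nt had 164, 347 and 141 reads in Chx, Harr and WT, or 12.9 per nt in Harr, and the 206 nt before them 10, 9 and 5. These 27 nt are coding in another annotated Clu transcript, so the reads could come from either, and their part in the Clu values was not tested. Aldh1l1 had 3.17 Harr reads per nt (73 reads) against 0.709 (129 reads), Slc1a3 2.33 (226) against 0.516 (220), and Glul 2.08 (27) against 0.526 (61). The Harr difference was least in Aldoc, at 0.667 on 8 reads against 0.392 on 100, and its WT values were 1.83 and 0.157. The last segments of Aldoc and Glul are 12 and 13 nt long, so a read that starts farther upstream falls in the segment before.

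Glul had 109, 88 and 81 5′ UTR reads and an odds ratio of 3.74 (3.28 to 4.21). Slc1a3 had 496, 446 and 226 reads and one of 3.30 (3.06 to 3.54). Aldh1l1 had 175, 202 and 89 reads and one of 3.01 (2.68 to 3.34). These 3 genes lay between the 85.1 and the 92.7 percentile of genes of equal CDS length. Against WT, Slc1a3 and Aldh1l1 were at the 87.2 and 88.5 percentiles and Glul at the 65.1.

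Slc1a2 had 262, 327 and 97 5′ UTR reads over 626 nt and an odds ratio of 2.73 (2.47 to 2.99). Aqp4 had 11, 6 and 3 reads and one of 2.72 (1.23 to 4.22). Both were near the median of genes of equal CDS length. Gfap has an annotated 5′ UTR of 14 nt and had 0 reads there in all libraries, so no ratio was given.

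Fabp7 again stood apart. It had 1942 5′ UTR reads in Chx against 1854 in Harr and 1332 in WT, or 23.2, 99.4 and 19.0 per 100 CDS reads. The Chx and WT values were the highest of the 10 genes. Its odds ratio was the lowest, at 2.10 (1.98 to 2.21), and 1.17 below the median of genes of equal CDS length. From Chx to Harr, its 5′ UTR reads went from 1942 to 1854, and those of its first coding segment from 3735 to 1727. Per 1000000 CDS reads these were log2 ratios of 2.35 and 1.31, so the first segment had the smaller increase of them, beyond counting error.

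The 5′ UTR reads were also compared within the region, per 1000000 5′ UTR reads of the library. From Chx to Harr the median log2 ratio of the 9 genes was 0.03, against -0.08 over 10216 genes. Clu (0.98, interval 0.72 to 1.25) and Apoe (0.76, 0.59 to 0.93) were above 90.6% or more of genes. Against WT this was not so: Apoe was at -0.37 (-0.53 to -0.21), at the 30.1 percentile, and Clu at 0.42 (0.14 to 0.70), at the 62.3 percentile. Aldoc, whose CDS ratio was the lowest, had a 5′ UTR ratio of 0.03 (-0.35 to 0.42). Glul was at -0.35 (-0.76 to 0.05), Slc1a3 at -0.20 (-0.38 to -0.02) and Fabp7 at -0.11 (-0.21 to -0.02). Aqp4 was the lowest at -0.87 (-2.26 to 0.52), at the 13.2 percentile on 6 Harr reads. Against WT, Glul was at -0.74 (-1.18 to -0.31), at the 18.6 percentile.

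**Figure D4:**
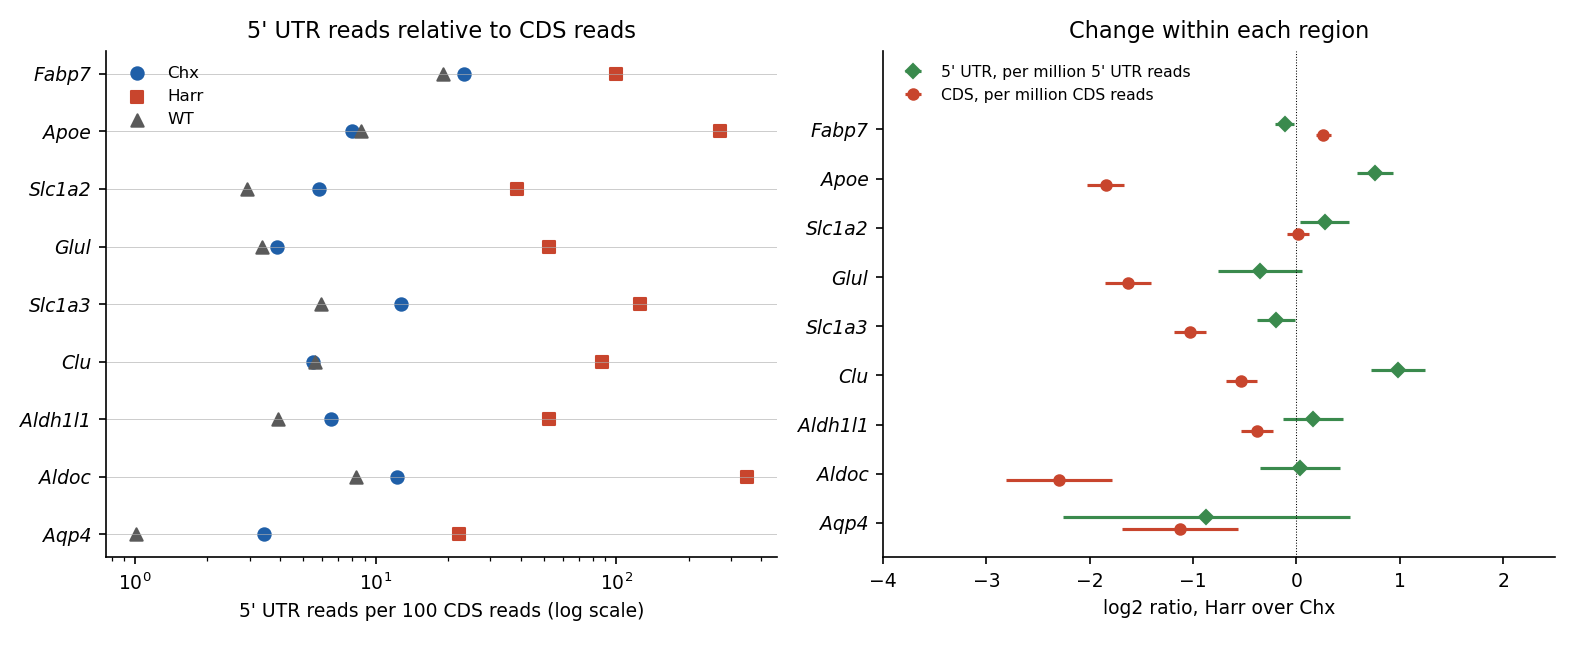
Left, 5′ UTR reads per 100 CDS reads (log scale) in the 3 libraries for the 9 genes with 5′ UTR reads: Harr is highest for each. Right, log2 ratio Harr over Chx of 5′ UTR reads (diamonds, per 1000000 5′ UTR reads) and CDS reads (circles, per 1000000 CDS reads) with 95% counting intervals; for Aldoc, Apoe, Clu and Glul the circle lies more than 1 log2 unit below the diamond, and for Fabp7 above it.

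Between Chx and WT the 5′ UTR to CDS ratio changed less. The median log2 odds ratio of the 9 genes was 0.56, against 0.67 over all genes. Slc1a3 had the largest well-counted value (1.10, 0.86 to 1.33), and Slc1a2 was at 0.99 (0.65 to 1.33). Apoe (-0.13, -0.32 to 0.07) and Clu (-0.02, -0.35 to 0.30) showed no difference beyond counting error, with intervals that exclude the median of all genes. The 5′ UTR reads of Apoe were lower in Chx than in WT per 1000000 5′ UTR reads (-1.13, -1.32 to -0.95), as its CDS reads were.

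Few reads lay in the 3′ UTRs. Slc1a2 had 9 in Chx against 61 in Harr and 27 in WT over 9250 nt, Clu 2, 19 and 13 over 230 nt, and Glul 7, 19 and 8 over 1541 nt. These 3 genes had more 3′ UTR reads in Harr than in Chx although that library was shallower. Over all genes with enough reads the 3′ UTR to CDS log2 odds ratio was above 0 as well, with a median of 3.76. Apoe differed from them, with 1 read in Chx against 0 in Harr and 45 in WT over 271 nt. Aldh1l1 (0, 0 and 9 reads) and Aqp4 (2, 0 and 5) also had 0 in Harr and the most in WT, on few reads. The Aqp4 3′ UTR overlaps an annotated CDS.

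Neighbouring lists were set beside the 10 genes. Among 15 further astrocyte genes, 11 had enough reads, and their median deviation from Chx to Harr was -0.26. Of these 11, 2 were at -1 or less, against 5.37% of all genes. They were Mlc1 (-1.27), an astrocyte membrane protein, and Atp1b2 (-1.20), a subunit of the sodium pump. Sparcl1 (0.78), a secreted matrix protein, and Mt3 (0.64), a metallothionein, were the highest. Against WT these were at 0.43 and -0.03, and the median of the 11 genes was -0.38. Without the start codon segment, 8 genes had enough reads, with medians of -0.52 against Chx and -0.65 against WT. In each comparison 2 of the 8 were at -1 or less, as were 5.89% and 6.05% of all genes.

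Among 13 of 14 radial glia and progenitor genes the median was -0.10, and 1 was at -1 or less, against 5.37% of all genes. That gene was the intermediate filament Vim (-1.15), which was at -0.51 without the segment of the start codon. The Notch target Hes1 was next at -0.95 (-1.95 to 0.06). The highest were Dbi (1.25), an acyl-CoA binding protein, and the transcription factor Pax6 (0.48, -0.52 to 1.47). The intervals of Hes1 and Pax6 include 0. Against WT the median was -0.24, and 3 of the 13 (Vim, Hes1 and Hes5) were at -1 or less, against 6.07% of all genes. The 8 neuronal markers had a median of -0.36 and none at -1 or less, from Tubb3 (-0.96) and Camk2a (-0.55) to Snap25 (0.04) and Map2 (0.40).

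Of 14 genes of the glutamate and glutamine cycle outside the list, 13 had enough reads, with a median of -0.34. At -1 or less were 2 of the 13, against 5.37% of all genes. These 2 were Slc38a3 (-2.01), the glutamine transporter SNAT3 that exports glutamine from astrocytes, and Got2 (-1.20), a mitochondrial aminotransferase. Slc38a3 had 491 reads in Chx against 21 in Harr and 446 in WT. The neuronal glutamate transporter Slc1a1 (0.12) and the glutamine transporter Slc38a1 (0.04) were the highest. The 6 of 8 lipoprotein pathway genes with enough reads had a median of 0.02 and none at -1 or less, from Abcg1 (-0.16) and Vldlr (-0.03) to Lrp8 (0.15) and Abca1 (0.33).

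**Figure D5:**
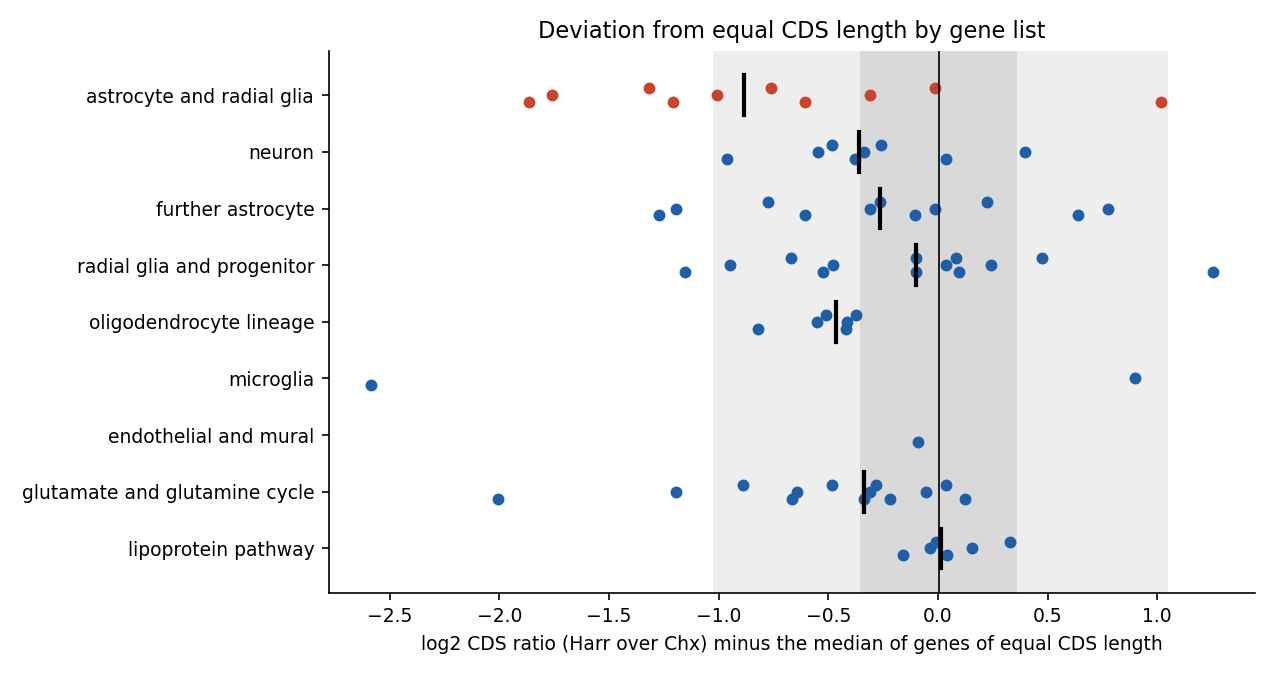
Deviation of the Harr over Chx log2 CDS ratio from genes of equal CDS length, 1 point per gene with 100 or more CDS reads, by gene list. Black ticks are medians of lists with 5 or more genes, and the dark and light bands hold 50% and 90% of all genes (-1.02 to 1.05 for the light one); the astroglial list (red) has its median at -0.88, left of the other lists with a median.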

How the data were processed

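Ribosome footprints of 3 libraries of mouse cortical neurons (WT, Chx, Harr) were analysed, grouped by the treatment label, with which the free-text descriptions conflict. The authors deposited 9 Plastid tables, 1 per library and region, with 1 line per exon segment (mm10). The deposited counts are whole, unnormalized reads. The deposited coverage signal is the count per nucleotide, and the deposited RPKM is per kilobase and 1000000 library reads. Per the file headers, reads of 25 to 100 nt were counted at the 5′ end (offset 0) after removal of rRNA reads and duplicates. The study's methods name Rsubread for its Plastid counts and TopHat for the ORF calls made from these treatments. Which of them produced these tables is not stated. There were 0 other columns of sample values.

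Only counts were used. Of 142446 transcript identifiers, 99.4% matched GENCODE M21. Segments were summed over the longest transcript of each gene with Python 3.11.15, numpy 2.4.6 and pandas 2.3.3. The pseudocount was 0.5, the minimum 100 CDS reads, or 10 reads per region for UTR ratios, and genes of equal length lay within 10%. Position classes used genes within 25%, with at least 30 reads. Intervals are for Poisson counts at 95%, and 3 counts equal 0.0840 (Chx), 0.308 (Harr) and 0.0993 (WT) reads per 1000000. The deviations were tested on simulated counts.

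The members and lists were chosen with earlier results of these data known. Named were all members and, of each further list, the 2 highest and 2 lowest deviations, with genes sharing words with a member; Aqp4 bases are not printed. Alternatives were other transcripts, scales, minimums, pseudocounts and comparison genes.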

Additional observations from a re-analysis of the deposited data

How the results depend on the processing

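The median deviation of the 10 genes from equal CDS length kept its direction under every alternative run, from -0.94 to -0.77 for Harr against Chx and from -1.16 to -0.92 for Harr against WT. With 5 added to each count in place of 0.5, the Harr to WT median ratio was -1.07 and the median deviation -0.92. With at least 1000 CDS reads, which leaves 8 genes without Aqp4 and Gfap, the median ratios were -0.78 (Harr against Chx) and -0.91 (Harr against WT). In Harr against Chx, 3 genes in place of 5 were then 2-fold below genes of equal length, without a share of all genes computed. Scaled to reads in all regions, the median ratios were -1.60 and -1.84, where all genes moved to -0.57 and -0.55. Scaled to the 13 mitochondrially encoded CDSs, they were -2.46 and -2.59, where all genes moved to -1.43 and -1.31. The Fabp7 Harr to Chx ratio was -0.26 and -1.12 under these scales. Deviations do not change with the scale. The median deviation of the 5′ UTR to CDS change was 0.92 (Harr against Chx), 0.88 (Harr against WT) and -0.10 (Chx against WT). Without a minimum of reads, which brings in Gfap at 0 reads and further comparison genes, these were 1.58, 1.50 and 0.25. The value for Chx against WT thus changed sign. Their lowest values under any alternative were 0.72, 0.60 and -0.18.

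Leaving out the segment with the start codon, an alternative chosen after the data were seen, reversed Fabp7 to -1.44 (Harr against Chx) and -1.48 (Harr against WT). Slc1a3 crossed the 2-fold line with the choice of comparison genes, at -0.98 within 25% of its length and -0.89 with like Chx reads as well. Gfap was at -0.75 with 5 added. No paired analysis was possible because each treatment has 1 library. Depth limits Gfap and Aqp4 most, with 3 and 27 CDS reads in Harr.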

Other observations

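Genes of the oligodendrocyte lineage were measured beside the astroglial ones. Of 9 genes, 6 had enough reads, and all 6 deviated below genes of equal CDS length from Chx to Harr, with a median of -0.47 and none at -1 or less. From WT to Harr all 6 were below as well, and the median was -0.67. At -1 or less were 2 of the 6, Olig2 (-1.28) and Sox10 (-1.22), against 6.07% of all genes. Olig2 (-0.82) and Sox10 (-0.55), transcription factors of the lineage, were the lowest from Chx, and Mbp (-0.37), a myelin protein, and Pdgfra (-0.41), the receptor that marks its progenitors, the highest. The intervals of Sox10 (-1.26 to 0.16) and Mbp (-1.06 to 0.31) include 0. No library had a read of the myelin genes Mog and Mobp (0 in each), which allows up to 3 reads in each.

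Of 6 microglial genes, 2 had enough reads. The complement gene C1qa had 76 CDS reads in Chx against 1 in Harr and 42 in WT. Its deviation from Chx to Harr was -2.59 (-4.92 to -0.25), lower than that of any of the 10 astroglial genes, on 1 read in Harr. Aif1 had 45, 9 and 46 reads and a deviation of 0.90 (-0.11 to 1.91). Of 6 endothelial and mural genes only Rgs5 had enough, with 81, 8 and 78 reads and a deviation of -0.09.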
